A study of Mus musculus with 135 samples.

Results

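The genes described here encode nuclear subunits of the oxidative phosphorylation (OXPHOS) complexes of mitochondria, in single haematopoietic stem cells (HSCs) of young and old mice. They were taken by symbol from the deposited table of read counts: names starting Ndufa, Ndufb, Ndufc, Ndufs, Ndufv, Uqcr, Cox4, Cox5, Cox6, Cox7, Cox8 or Atp5, and *Sdha*, *Sdhb*, *Sdhc*, *Sdhd* and *Cyc1*, without assembly factors named Ndufaf, pseudogenes and entries that join several genes. This gave 80 of 15181 genes, 36 for complex I, 4 for complex II, 9 for complex III, 14 for complex IV and 17 for complex V. Of these, 78 were expressed in 10% of cells or more, and *Cox4i2* and *Cox7a1* were not. The rule is by name, so it also takes in *Atp5s* and *Atp5sl*, which are not structural subunits, *Cox7a2l*, a factor that joins complexes into supercomplexes, and *Ndufa4*, a protein named for complex I that is now placed with complex IV. It was counted here by its name, with complex I. The 13 subunit genes of the mitochondrial genome were not analysed here.

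The HSCs came from bone marrow of C57BL/6 mice that carry the Vwf-eGFP reporter. Young HSCs were from a mouse of 2 to 3 months and old HSCs from a mouse of 20 to 25 months, and the labels give no treatment. Both were sorted as Lin−Sca-1+c-Kit+ (LSK) CD150+CD48− cells without the dead-cell dye 7AAD, then captured on a microfluidic chip that lyses each cell and amplifies its polyadenylated RNA. Of 61 young and 74 old cells, 52 and 62 passed the limits of the study's methods and were used first. Each age is 1 mouse on 1 capture run, so the cells are not replicates and values are described without a test or p-value.

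The labelled cell type was checked on its markers. Of the cells, 49 of 52 young and 61 of 62 old expressed *Kit*, and 1 and 0 expressed *Cd48*. Among other HSC markers, *Hlf* was expressed in 49 young and 55 old cells, *Mecom* in 43 and 40, and *Mllt3* in 38 and 47. *Ly6a* was detected in 28 and 43, *Procr* in 11 and 24, *Fgd5* in 6 and 14, and *Hoxb5* in 7 and 5. Among erythroid markers, *Hba-a1* was expressed in none, *Klf1* in 2 and 0, and *Epor* in 4 and 1. Markers of other lineages were not all absent: *Lyz2* was expressed in 43 young and 43 old cells, and *Prtn3* in 38 and 59. In the same granulocyte and macrophage list, *Mpo* was expressed in only 2 and 1 cells and *Elane* in 0 and 1. Among megakaryocyte markers, *Gp9* was expressed in 14 and 24 cells, *Itga2b* in 13 and 17, *Pf4* in 5 and 11, *Gp1bb* in 1 and 2 and *Ppbp* in 2 and 2. *Cd79b* of B cells was expressed in 12 and 16, and *Cd3d* of T cells in 16 and 16. Summed over 4 granulocyte and macrophage markers the median was 185 CPM (0.352 to 1965) in young and 390 CPM (0.758 to 2348) in old cells, and over 5 megakaryocyte markers it was 1.07 CPM (0 to 1116) and 18.01 CPM (0 to 2891). The part of these markers in the differences below was not tested. The sort makes CD150 (*Slamf1*) a surface marker, but its RNA was detected in 9 young and 15 old cells. *Xist*, a transcript of the inactive X chromosome, was found in 50 young but 8 old cells, and any of 4 Y-linked genes in 2 young but 58 old cells. Age, mouse, sex-linked genes and capture run cannot be told apart in any value below. Reads counted on genes ranged from 273236 to 5688706 per young cell and from 276316 to 4086659 per old cell. Medians of 4116 and 3902 genes per cell were expressed, that is above 2 on the scale of log2(CPM + 1), where CPM is the count of a gene scaled to the total counted reads of the cell.

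OXPHOS is the process by which mitochondria make most of the ATP of a respiring cell. Complexes I and II feed electrons from NADH and succinate to coenzyme Q, complex III passes them to cytochrome c, complex IV passes them to oxygen, and complex V, the ATP synthase, uses the proton gradient that complexes I, III and IV build. HSCs at rest are known for low mitochondrial activity and a reliance on glycolysis, and they are known to turn to OXPHOS when they are activated. Transcription factors NRF1, GABPA of the ETS family and YY1 are known to act on the promoters of many nuclear OXPHOS genes.

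Promoter sequences of the RefSeq annotation (GRCm38.p6), 250 bases before to 50 after a start of transcription, were present for 67 of the 80 members. Letter strings of sites of these 3 factors were searched on both strands, in any window of a gene: GCATGCGC or its reverse complement GCGCATGC for NRF1, CCGGAAG or CTTCCGG for ETS factors, and AAGATGGC or GCCATCTT for YY1. No string of one factor holds that of another, but both NRF1 strings can overlap as a palindrome. Of the 67, 31 members (46.3%) held at least 1, against 31.1% of 7520 genes that passed the same 10% limit and 14.9% of 27025 genes in the promoter table. The NRF1 string was in 10 members (14.9%), against 6.57% of expressed genes and 3.05% of all. The YY1 string was in 11 members (16.4%), against 5.82% and 3.19%. The ETS string was in 16 members (23.9%), against 22.2% of expressed genes and 9.93% of all. All 11 members with the YY1 string belonged to complex I (7 of 32 with a promoter sequence) or complex V (4 of 16). Complexes II, III and IV had 0 of 3, 0 of 5 and 0 of 11. Most of their 4, 9 and 14 members were thus searched, but the numbers are small. A match is a description of letters, not a site shown to be bound.

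Windows for 5 members are shown. *Ndufv1* and *Atp5c1* had the highest and lowest difference between ages, *Atp5j2* alone held any string among the members past 2-fold that are named below, and *Cox6a1* and *Sdhb* held both the NRF1 and the ETS string. Capitals mark the strings, and each is on the strand of its gene from 5′ to 3′. They lie at chr19:4012706-4013005 (minus strand) for *Ndufv1*, chr2:10080461-10080760 (minus) for *Atp5c1*, chr5:145191492-145191791 (minus) for *Atp5j2*, chr5:115348909-115349208 (minus) for *Cox6a1* and chr4:140961021-140961320 (plus) for *Sdhb*.
Ndufv1: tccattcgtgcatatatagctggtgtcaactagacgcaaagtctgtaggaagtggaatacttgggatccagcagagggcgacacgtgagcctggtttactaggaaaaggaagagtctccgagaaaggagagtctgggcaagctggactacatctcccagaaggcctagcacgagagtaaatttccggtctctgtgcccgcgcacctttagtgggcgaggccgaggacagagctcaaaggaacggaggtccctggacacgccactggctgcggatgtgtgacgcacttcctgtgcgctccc
Atp5c1: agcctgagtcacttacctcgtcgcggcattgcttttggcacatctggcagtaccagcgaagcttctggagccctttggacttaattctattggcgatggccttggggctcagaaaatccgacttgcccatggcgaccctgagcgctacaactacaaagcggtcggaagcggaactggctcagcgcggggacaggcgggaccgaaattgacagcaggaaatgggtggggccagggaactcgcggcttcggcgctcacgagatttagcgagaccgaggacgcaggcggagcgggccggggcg
Atp5j2: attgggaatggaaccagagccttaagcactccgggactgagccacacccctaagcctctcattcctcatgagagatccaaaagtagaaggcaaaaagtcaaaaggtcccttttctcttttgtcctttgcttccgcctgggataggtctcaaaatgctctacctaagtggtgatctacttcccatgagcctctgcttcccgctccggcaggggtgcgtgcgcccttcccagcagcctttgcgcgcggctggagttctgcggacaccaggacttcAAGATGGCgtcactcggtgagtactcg
Cox6a1: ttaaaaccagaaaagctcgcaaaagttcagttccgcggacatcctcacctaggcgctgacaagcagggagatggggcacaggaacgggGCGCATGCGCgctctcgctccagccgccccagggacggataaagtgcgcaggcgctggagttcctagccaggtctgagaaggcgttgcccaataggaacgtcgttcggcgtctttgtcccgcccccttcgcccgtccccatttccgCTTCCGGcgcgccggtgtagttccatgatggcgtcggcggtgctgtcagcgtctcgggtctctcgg
Sdhb: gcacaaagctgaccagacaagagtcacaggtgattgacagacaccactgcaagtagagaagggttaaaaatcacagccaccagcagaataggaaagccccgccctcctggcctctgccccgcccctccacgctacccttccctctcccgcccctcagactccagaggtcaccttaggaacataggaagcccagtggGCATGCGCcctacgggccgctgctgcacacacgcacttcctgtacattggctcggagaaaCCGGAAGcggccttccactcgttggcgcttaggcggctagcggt
In *Atp5j2* the YY1 string begins at base 24 of the transcript. In *Cox6a1* the 2 NRF1 strings overlap as a palindrome that begins 162 bases before the start, and the ETS string begins 16 bases before it. In *Sdhb* they begin 54 bases before the start and at base 7 after it. The median difference between ages, as defined below, was −0.27 over the 10 members with the NRF1 string and −0.12 over the 57 without, −0.07 over the 16 with the ETS string and −0.20 over the 51 without, and −0.20 over the 11 with the YY1 string and −0.14 over the 56 without.

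The first comparison asked whether OXPHOS subunit genes differed in level between young and old HSCs. The level of a gene is its mean over cells of log2(CPM + 1), and a difference is the old minus the young level. Over the 80 members the median difference was −0.15, with 28 members higher and 52 lower in old HSCs. Over 15014 genes with a count the median was −0.02, with 46.2% of differences above and 53.8% below 0. Only *Ndufv1* and *Cox7a2l* were past 2-fold (1 on the log2 scale) higher in old HSCs, and 5 members, among them *Atp5c1*, *Atp5o*, *Ndufa4* and *Atp5j2*, were past 2-fold lower. That is 2.50% and 6.25% of members, beside 3.91% and 4.49% of all genes past 2-fold higher and lower, and beside 6.24% and 6.98% of the 9374 genes that passed the 10% limit. The members' counts past 2-fold were thus near or below the background of expressed genes in both directions.

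The median difference was −0.11 for complex I, −0.26 for complex II, −0.14 for complex III, −0.15 for complex IV and −0.15 for complex V. All 4 members of complex II were lower in old HSCs, by between 0.12 and 0.36, and 13 of 17 members of complex V were lower. These medians lay within 0.2 of the median over all genes except for complex II. They also depended on which cells were used. In the 25 young and 49 old cells that expressed none of the cycle genes *Ccna2*, *Ccnb1*, *Cdk1* and *Cdc25c*, the median difference over 79 members with a count turned to +0.46, with 58 higher and 21 lower. Over all 14486 genes with a count in those cells it was +0.03, with 7891 higher and 6595 lower. There 18 members were past 2-fold higher and 4 lower, beside 7.75% and 4.29% of all genes. Those shares are over all genes with a count, and none over genes past the 10% limit is given for these cells. The median share of expressing cells is higher for members than for all genes, so the shares are not like for like. The median number of genes expressed was 3862 in these young and 3939 in these old cells, and that of members 48 and 53, while the members' median share of reads was 1.14% and 0.979%. As a ratio of summed counts the median over members was 0.069, against 0.143 over all genes, so the mean log levels and the reads did not give the same picture. The part of genes detected in this was not tested.

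**Figure D1:**
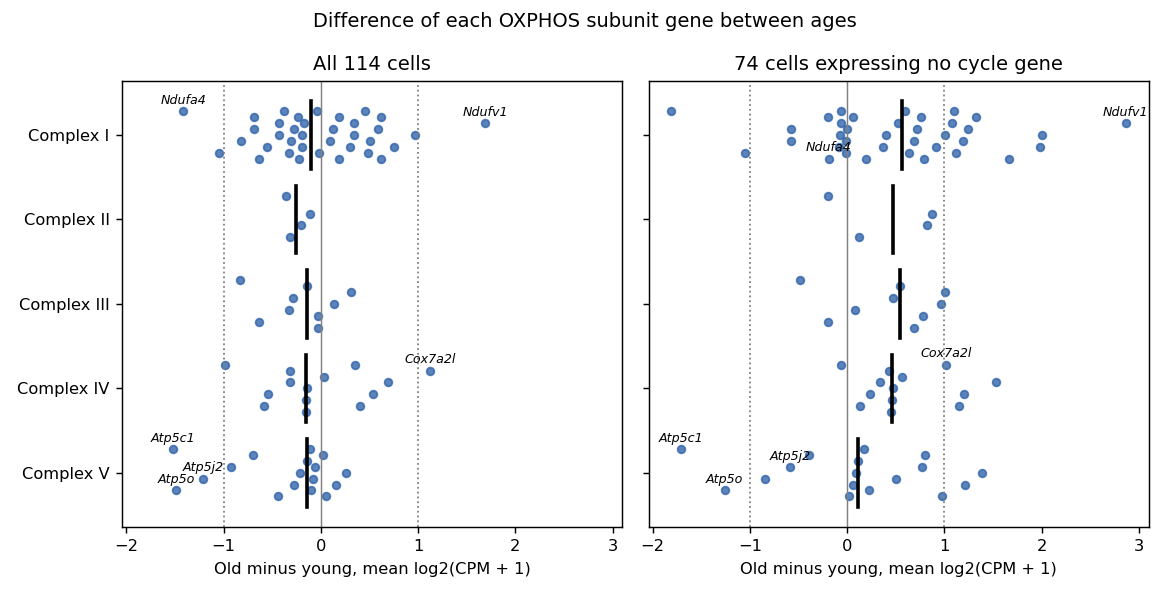
Difference of each member between ages, old minus young in mean log2(CPM + 1), by complex, over all 114 cells (left) and over the 74 cells that expressed none of the 4 cycle genes (right). Points are genes, black bars are medians over a complex and dotted lines mark 2-fold; all 5 medians lie below 0 on the left and above 0 on the right.

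In that plot of differences by complex, the medians of all 5 complexes, below 0 over all cells, lie above 0 when cells with a cycle gene are left out, with complex V then nearest to 0, at +0.11. The 4 genes named as past 2-fold lower in old HSCs were also below 0 among cells without a cycle gene, with *Atp5c1* at −1.71, *Atp5o* at −1.26, *Atp5j2* at −0.59 and *Ndufa4* at −0.19.

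Complex V held the member with the lowest difference. *Atp5c1*, the gamma subunit that forms the central stalk of the enzyme, ranged from 0.40 to 11.02 with a median of 9.10 over the 52 young cells, and from 0 to 10.61 with a median of 8.23 over the 62 old cells. Its level was 8.35 ± 1.97 (SD over cells) in young and 6.83 ± 3.34 in old HSCs, a difference of −1.52. Cells that expressed it were 51 of 52 young (98.1%, 95% exact Clopper-Pearson interval 89.7 to 99.9) and 50 of 62 old cells (80.6%, 68.6 to 89.6). The ages overlapped over nearly the whole range, and the old cells stood out by 12 cells that did not express the gene. In expressing cells the mean levels were 8.50 and 8.26. Such intervals cover the sampling of cells from 1 mouse of each age and not the spread between mice.

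The 12 old cells without *Atp5c1* had a median of 3599 genes expressed and 42 members expressed, against 4061 and 55 in the 50 old cells with it. A ratio of counts summed over cells gave −0.38 for this gene. *Atp5c1* also has a named pseudogene, whose reads could be shared with it.

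*Atp5o*, which encodes a subunit of the peripheral stalk, had a median of 7.16 over young cells and 4.33 over old cells, with a range from 0 to 9.63 and from 0 to 8.95. It was expressed in 41 of 52 young cells (65.3 to 88.9%) and 38 of 62 old cells (48.1 to 73.4%), and its difference was −1.49. *Atp5j2*, a membrane subunit, ranged from 0 to 9.10 with a median of 6.45 in young and from 0 to 8.13 with a median of 5.54 in old cells. In 45 young and 42 old cells it was expressed, with a difference of −1.21. For both genes the ages overlapped, and more old than young cells were at or near 0. The levels within expressing cells were closer, at 7.18 and 6.78 for *Atp5o* and at 6.28 and 6.20 for *Atp5j2*.

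The catalytic beta subunit *Atp5b*, the complex V member with the highest level, was at 8.38 ± 2.24 in young and 7.45 ± 3.03 in old HSCs. Of the cells, 51 of 52 and 56 of 62 expressed it. *Atp5f1*, another peripheral stalk subunit, was at 7.15 and 6.45, a difference of −0.70 that was 0.06 as a ratio of summed counts. None of the 17 complex V members was past 2-fold higher in old HSCs, beside 6.24% of genes past the 10% limit. No member of complexes II and III was past 2-fold higher either.

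Complex I held the member with the highest difference. *Ndufv1* encodes the subunit that binds FMN and NADH, where electrons enter the complex. It ranged from 0 to 8.98 over young cells with a median of 0, and from 0 to 10.18 over old cells with a median of 1.5. It was expressed in 13 of 52 young cells (25.0%, 14.03 to 38.9) and 27 of 62 old cells (43.5%, 30.99 to 56.7), at mean levels in those cells of 5.97 and 7.15. Its difference was 1.69, and 2.87 among cells without a cycle gene, where 2 of 25 young and 22 of 49 old cells expressed it. Summed over cells it had 5516 reads in young and 18363 in old HSCs, a log2 ratio of 1.95 per counted read. In both ages most cells had little or no *Ndufv1*, and a larger share of old cells lay in the upper range. Cells that expressed it had more genes expressed than those that did not, with medians of 4708 and 3966 in young and 4204 and 3709 in old HSCs.

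*Ndufa4* was at 6.91 ± 2.18 in young and 5.49 ± 2.95 in old HSCs, expressed in 49 of 52 (84.1 to 98.8%) and 49 of 62 cells (66.8 to 88.3%), a difference of −1.41. This difference was −0.19 among cells without a cycle gene.

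Other complex I members among the 10 largest positive differences were *Ndufb10* (0.97), *Ndufa1* (0.76), *Ndufb4* (0.62), *Ndufb8* (0.62), *Ndufa7* (0.59) and *Ndufv3* (0.51), all of them accessory subunits that surround the catalytic core. All 6 were also above 0 in cells without a cycle gene, from 0.76 for *Ndufv3* to 2.01 for *Ndufb8*, as were 58 of 79 members. As ratios of summed counts *Ndufa7* (0.0061) and *Ndufb8* (0.0999) lay near 0, and the other 4 lay between 0.56 and 0.70. *Ndufa7* was expressed in 41 of 52 young (65.3 to 88.9%) and 57 of 62 old cells (82.2 to 97.3%). *Ndufb5* was at −0.82. *Ndufa6*, another accessory subunit, was at 6.59 in young and 6.36 in old HSCs and was expressed in 50 and 59 cells.

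Complex II, succinate dehydrogenase, is also an enzyme of the citric acid cycle and has no subunit from the mitochondrial genome. Its flavoprotein *Sdha* was at 5.24 ± 3.96 in young and 4.88 ± 3.78 in old HSCs, and its iron-sulphur subunit *Sdhb* at 5.41 ± 3.71 and 5.09 ± 3.60. The membrane anchors were at 2.66 and 2.46 for *Sdhc* and at 3.93 and 3.81 for *Sdhd*. Each of the 4 had cells at 0 and cells above 9 in both ages. For *Sdhc* 22 young and 23 old cells were expressing, and for *Sdhd* 26 and 33. All 4 differences were smaller than the SD over cells, and those of *Sdhc* and *Sdhd* were 0.87 and 0.82 in cells without a cycle gene.

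In complex III, *Cyc1*, which encodes cytochrome c1, was expressed in 21 of 52 young cells (27.01 to 54.9%) and 16 of 62 old cells (15.5 to 38.5%). Its level was 2.48 ± 3.15 and 2.15 ± 3.46, a difference of −0.33, while its summed reads were 11159 and 16272. Fewer old cells expressed *Cyc1*, and the difference in expressing cells was 1.94. Of its reads, 1 cell held 35.5% in old and 1 cell held 28.5% in young HSCs. Among cells without a cycle gene its difference was 1.01, with 4 of 25 young and 11 of 49 old cells expressing it. The direction for *Cyc1* therefore depends on the summary and on the cells used. The core subunit *Uqcrc1* was at 5.72 ± 3.95 and 4.89 ± 3.77, expressed in 38 young and 38 old cells, with a difference of −0.83. The hinge protein *Uqcrh* was at 7.13 ± 1.99 and 7.10 ± 1.89, with 50 and 59 expressing cells.

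In complex IV, *Cox7a2l* ranged from 0.26 to 10.85 with a median of 7.32 over young cells and from 0 to 10.60 with a median of 8.09 over old cells. It was expressed in 47 of 52 and 59 of 62 cells, and its difference was 1.13, of which 0.84 was also seen among expressing cells. The ratio of summed counts was 0.33, so the reads differed less than the mean log levels. The ages overlapped, with fewer low cells in old HSCs. *Cox8a*, a small membrane subunit, was at 5.83 ± 2.34 and 6.51 ± 1.83, expressed in 45 (74.2 to 94.4%) and 59 cells (86.5 to 99.0%), a difference of 0.69. Among cells without a cycle gene 18 of 25 young and 49 of 49 old ones expressed it, with a difference of 1.53.

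**Figure D2:**
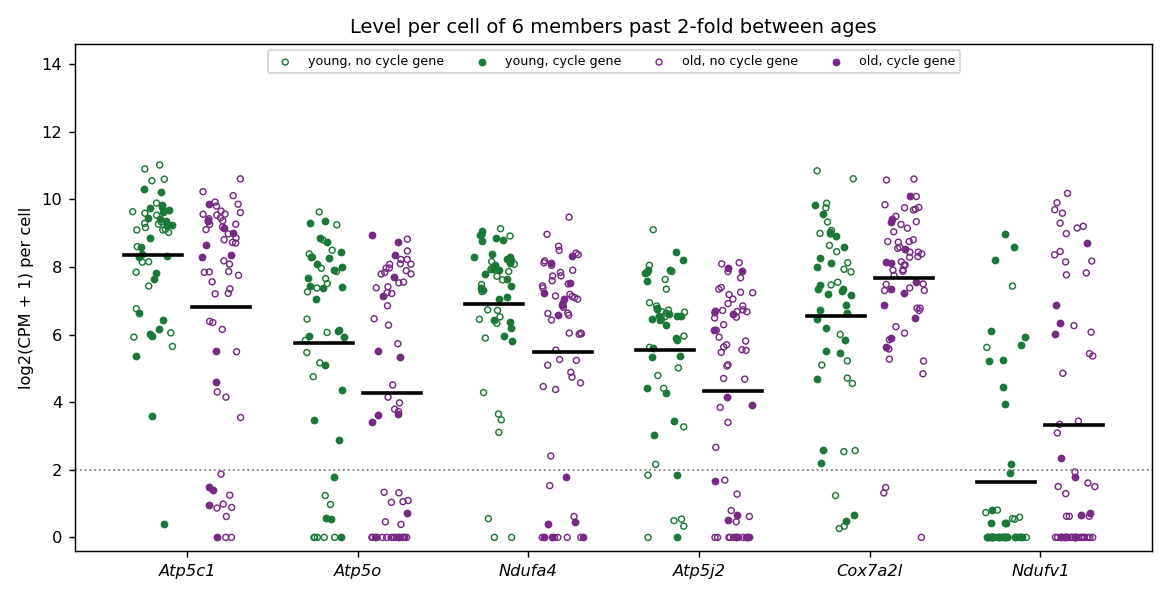
Level of 6 members past 2-fold between ages in each of 52 young and 62 old cells, as log2(CPM + 1). Filled points are cells that expressed at least 1 of the 4 cycle genes, open points other cells, black bars are means over cells and the dotted line at 2 is the limit for an expressing cell; young and old cells overlap for every gene, and *Ndufv1* has a median of 0 in young cells.

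The plot of levels per cell shows, for most of these genes, cells at or near 0 and cells mostly between 5 and 10. For *Atp5c1*, *Atp5o*, *Ndufa4* and *Atp5j2* the ages differ mainly in how the cells divide between them. For *Ndufv1* and *Cox7a2l* the mean level in expressing cells also differed, by 1.17 and 0.84. Of the 3 X-linked members, *Ndufa1* was higher in old HSCs (0.76), and *Ndufb11* (−0.69) and *Cox7b* (−0.99) were lower. For *Cox7b* 45 of 52 young cells and 43 of 62 old cells were expressing, and its difference was 0.13 among cells without a cycle gene. These X-linked genes cannot be told apart from the difference in *Xist* and Y-linked genes between the mice.

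Several subunits have isoform genes with their own tissues, and these were compared per transcript length, on a TPM scale in which reads are divided by transcript length and then by their sum in the cell, averaged over cells. *Cox4i1*, the general isoform, made up 99.4% of the *Cox4i* level in young and 99.6% in old HSCs. *Cox4i2*, known from lung and overlapping the counted gene *Bcl2l1*, was expressed in 3 and 2 cells. *Cox7a1*, known from heart and skeletal muscle, had 4 reads in 1 young cell and 18 reads in 1 old cell. The general isoforms were thus the ones found in most HSCs of both ages.

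*Cox6b2*, known from testis, was the exception among the minor isoforms. It was expressed in 19 of 52 young cells (36.5%, 23.6 to 51.04) and 17 of 62 old cells (27.4%, 16.9 to 40.2). Per length it made up 13.7% of the *Cox6b* level in young and 7.25% in old HSCs, with *Cox6b1* at 86.3% and 92.8%. The highest *Cox6b2* level in a cell was 7.05 in young and 6.37 in old HSCs on the log2(CPM + 1) scale. In young HSCs it was expressed in 13 of 27 cells with a cycle gene and 6 of 25 without. Its difference between ages was −0.59 over all cells but 0.45 among cells without a cycle gene, of which 6 of 25 young and 15 of 49 old cells expressed it, so its direction turned there.

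*Atp5g1*, *Atp5g2* and *Atp5g3* encode the same mature subunit of the proton-carrying ring. *Atp5g2* made up 53.8% of their level per length in young and 47.6% in old HSCs, *Atp5g3* 38.7% and 44.7%, and *Atp5g1* 7.50% and 7.68%. The order was the same in both ages. *Cox5a* and *Cox5b*, which are distinct subunits and not alternatives, were at 235 and 248 in young and at 275 and 240 in old HSCs. Across all complexes, the highest levels per length were those of *Cox6a1* in young (1171) and *Cox4i1* in old HSCs (1061), and the medians were 206 and 196 for complex I, 262 and 213 for complex II, 353 and 295 for complex III, 309 and 302 for complex IV and 447 and 417 for complex V. Every one of these 5 medians was lower in old HSCs, and the order of complexes was the same except that complex IV stood above complex III in old HSCs.

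**Figure D3:**
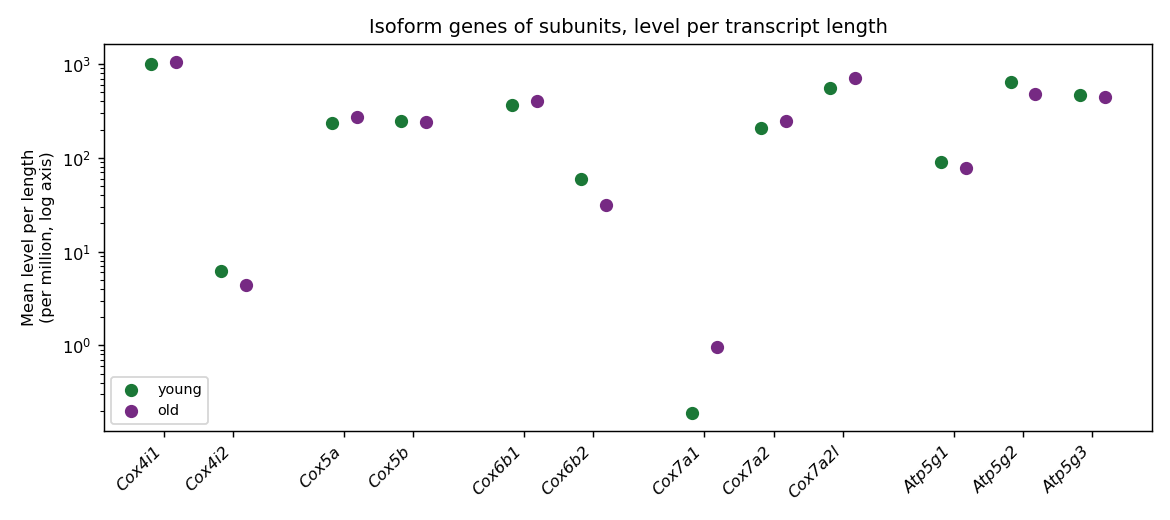
Mean level per transcript length (TPM scale, log axis) of subunit genes with more than 1 isoform or partner gene in the table, in young and old HSCs. Points are means over 52 young and 62 old cells; *Cox4i2* and *Cox7a1* lie far below their partners, and *Cox6b2* lies at 58.8 and 31.5.

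The plot of isoform genes shows that the rank within each set was kept between ages but for *Cox5a* and *Cox5b*. Spread over cells is not drawn there, since cells of 1 mouse are not replicates.

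The members were also followed as a whole in each cell. They took a median of 1.14% of counted reads in young cells (0.551 to 1.77) and 0.981% in old cells (0.587 to 1.75). A median of 54 of the 80 were expressed in a young cell (32 to 73) and 52.5 in an old cell (37 to 70). The highest member alone took a median of 11.5% of member reads in young and 12% in old cells. Ages overlapped over most of the range in both measures. The number of members expressed followed the number of genes expressed in a cell, with r = 0.84 over 52 young and r = 0.69 over 62 old cells, whereas the share of reads did not (r = 0.13 and 0.03). Both counts of a cell come from the same library, and these values are descriptions over cells of 1 mouse each.

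Cells that expressed at least 1 of the 4 cycle genes numbered 27 of 52 in young and 13 of 62 in old HSCs. In young HSCs, 74 of 80 members had a higher level in these cells than in the other 25, with a median difference of 0.997 against 0.11 over all genes. Of 13999 genes with a count in young cells, 8397 were higher and 5602 lower. In this split 39 members were past 2-fold higher and 1, *Ndufb5*, past 2-fold lower, beside 14.1% and 2.69% of all genes. Those shares are over all genes with a count, and none over genes past the 10% limit is given for this split. The median share of young cells expressing a gene was 69.2% over members and 17.3% over all genes with a count. The shares are therefore not like for like. The largest differences were those of *Cyc1* (2.93), *Atp5g3* (2.69), *Ndufb8* (2.65), *Atp5k* (2.35) and *Ndufa10* (2.29). *Cyc1* was expressed in 17 of 27 young cells with a cycle gene and 4 of 25 without. *Atp5g3* was expressed in 26 and 16, and *Ndufb8* in 21 and 13. *Atp5c1* (−0.85) and *Ndufs1* (−0.60) were among the 6 members that were not higher.

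The share of reads did not follow the same course. Members took a median of 1.13% of reads in young cells with a cycle gene and 1.14% in the others, and the median ratio of summed counts was 0.24. Genes expressed per cell moved with the result, at 4614 in young cells with a cycle gene and 3862 in the others, and members expressed at 64 and 48. Within young cells of 3500 to 4500 genes expressed, 10 with a cycle gene and 18 without, the median difference was 0.76. The part of genes detected in the difference was not tested.

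In old HSCs the same split gave differences on both sides of 0. Over 13 cells with a cycle gene and 49 without, the median was −0.10, with 34 members higher and 46 lower. Of 14140 genes with a count in old cells, 6831 were higher and 7309 lower. Past 2-fold were 12 members higher and 10 lower, beside 8.33% and 5.31% of those genes. No share over genes past the 10% limit is given here either. The old cells with a cycle gene had 3760 genes expressed and the others 3939, with 46 and 53 members, and took 0.984% and 0.979% of reads. Complex I members lay on both sides, from *Ndufab1* (1.87) to *Ndufa4* (−1.66) and *Ndufb5* (−1.61). All 4 complex II members were higher, led by *Sdha* (1.58), and 12 of 14 complex IV members were lower, led by *Cox7b* (−1.48). In the 3 old cells that expressed at least 2 of the cycle genes the median was 0.74 against the other old cells, and in 15 young cells it was 1.01. Whether the young and old splits differ was not tested, since each rests on 1 mouse.

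**Figure D4:**
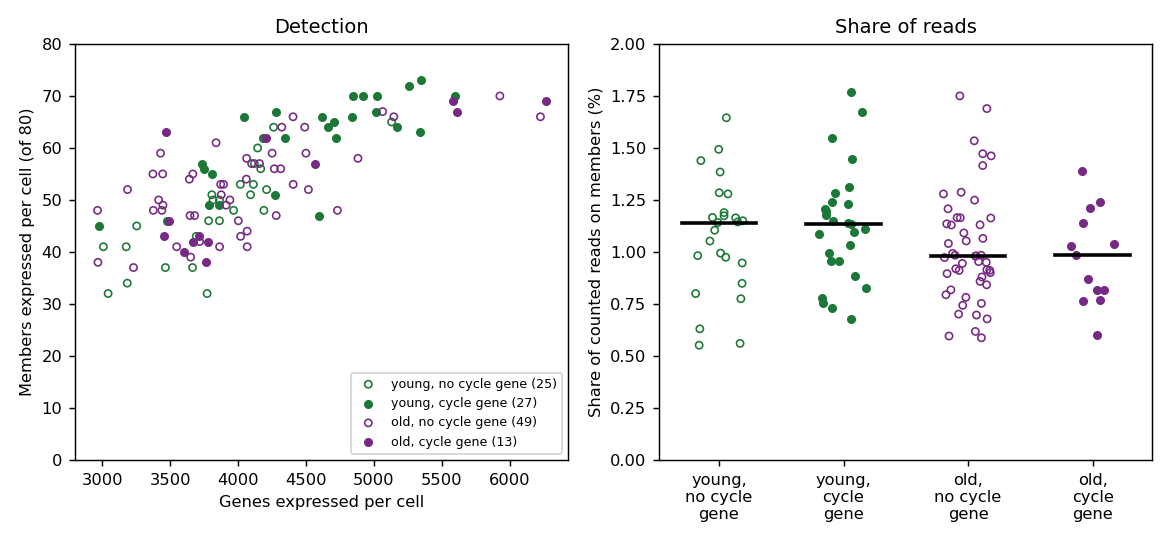
Members expressed against genes expressed per cell (left) and share of counted reads on the members in percent (right), for 27 young and 13 old cells with a cycle gene (filled) and 25 young and 49 old cells without (open). Black bars on the right are medians; members expressed go up with genes expressed, while the medians of the share are 1.14% and 1.13% in young and 0.979% and 0.984% in old cells.

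**Figure D5:**
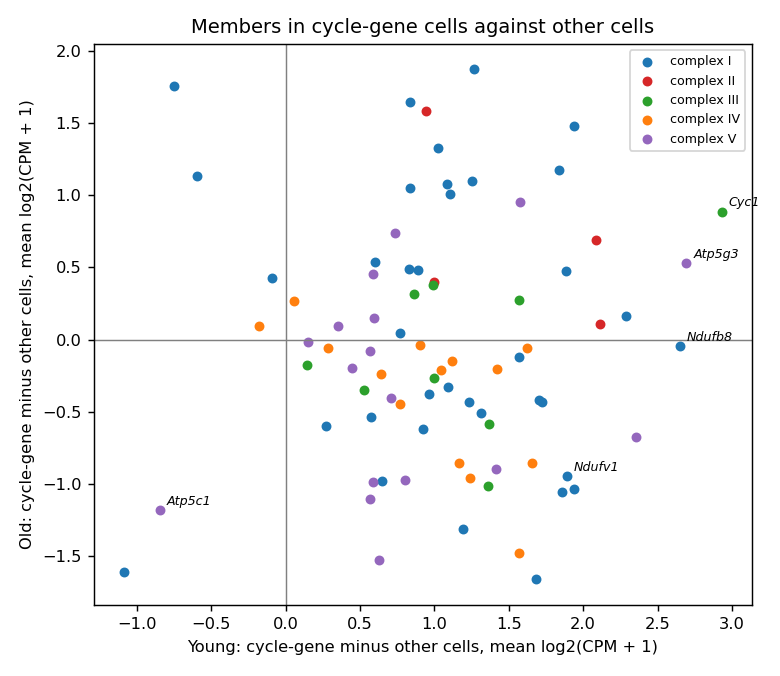
Difference in mean log2(CPM + 1) between cells with and without a cycle gene for each of the 80 members, in young (horizontal axis) and old HSCs (vertical axis). Points are genes coloured by complex; 74 lie to the right of 0, and 34 lie above 0.

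In the plot of detection and share, most young cells with a cycle gene lie in the upper right, and old cells with a cycle gene are found along the whole range. In the plot of cycle-gene cells, the young differences lie almost all on one side, and the old differences scatter about 0 with a spread from −1.66 to 1.87. In young HSCs 3 other lists were also higher in cells with a cycle gene. These were mitochondrial exchange and uncoupling (median 1.46, 9 genes), proteasome subunits (1.004, 39 genes) and mitochondrial ribosomal proteins (0.61, 77 genes). Regulators of mitochondrial biogenesis (0.30, 18 genes), electron carriers (0.26, 15 genes) and assembly factors (0.24, 43 genes) lay nearer the 0.11 of all genes. Cytosolic ribosomal proteins were not higher (−0.15, 84 genes). Their median share of expressing young cells was 100%, against 69.2% over members, and the part of detection in this contrast was not tested.

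Members varied together only weakly from cell to cell. The median Pearson r over 3003 pairs of 78 members was 0.0995 in young and 0.063 in old HSCs, against 0.012 and 0.014 over pairs of all genes past the 10% limit. The 2 backgrounds are not like for like. The median share of expressing young and old cells was 69.2% and 67.7% over members, and 32.7% and 32.3% over genes past that limit. Pairs within a complex had medians of 0.096 and 0.056, and pairs between complexes 0.101 and 0.066, so pairs within a complex were not the more alike. In young HSCs 6 pairs exceeded 0.5, led by *Cox8a* with *Ndufa4* (0.64), and in old HSCs 1 pair did, *Ndufb3* with *Ndufc2* (0.56). All pairs share the depth and gene number of their cell.

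Genes that serve the complexes were taken from lists by function. Assembly factors had a median difference between ages of −0.16, with 16 of 43 higher and 27 lower. Past 2-fold were *Coa5* (1.79) and *Cox20* (−1.24), both of complex IV assembly. That is 2.33% of the list in each direction, beside 3.91% and 4.49% of all genes with a count. Regulators of mitochondrial biogenesis had a median of −0.30, with 6 of 18 higher. Among them *Gabpb1*, the partner of the ETS factor GABPA, was at 3.28 in young and 1.99 in old HSCs, and *Nrf1* at 1.63 and 0.96. *Tfam*, which packages and transcribes mitochondrial DNA, was at 2.73 and 3.44.

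Electron carriers and coenzyme Q enzymes had a median of −0.00 over 15 genes. Cytochrome c (*Cycs*) was expressed in all 114 cells, at 6.32 and 5.76. *Adck3* was the 1 gene of this list past 2-fold (1.54), that is 6.67% of it, beside 3.91% of all genes with a count past 2-fold higher. Of 9 genes for exchange across the mitochondrial membranes and uncoupling, *Ucp2* was at 6.18 in young and 4.04 in old HSCs and was expressed in 43 and 37 cells, a difference of −2.14 that exceeded that of any OXPHOS member in size. The outer membrane channel *Vdac1* was at −1.12. Mitochondrial ribosomal proteins had a median of −0.10 (77 genes, 2 past 2-fold higher and 7 lower), cytosolic ribosomal proteins −0.05 (84 genes, 0 and 1) and proteasome subunits 0.15 (39 genes, 3 and 3). Past 2-fold higher and lower were thus 2.60% and 9.09%, 0% and 1.19%, and 7.69% and 7.69% of these lists. Beside them stand 6.24% and 6.98% of genes past the 10% limit, so these counts were near or below that background.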

How the data were processed

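Single HSCs were captured on the Fluidigm C1 system, and their libraries were sequenced as single reads of 51 bp. The authors mapped the reads to mm10 with TopHat 2.0.10, keeping 1 alignment per read, and counted them on RefSeq genes with rpkmforgenes. The deposited values are whole-number read counts per gene and cell, without normalization, and no source used here says that strand was used. Of 80 members, 12 overlap another counted gene and 9 have a named pseudogene. All were matched to RefSeq (GRCm38.p6), 3 under a newer symbol (*Atp5f1*, *Atp5s* and *Atp5sl*).

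Here each count was divided by its cell's total to give CPM, and a pseudocount of 1 CPM was added before log2. Expressing cells were above 2 on that scale. The cells used were those within the study's limits on mapped reads, mitochondrial share and genes detected, by the values per cell that the study lists. Levels per length used the median RefSeq transcript. The members and lists were chosen with earlier results of these data known. Named members were the 10 largest positive and the 10 largest negative differences among those expressed in at least 10% of cells, all complex II genes, *Cyc1*, the isoform sets and the highest member of each complex, and of each other list at most 5. Of the members that this rule names, 1 is not reported here. Members named beyond that rule, in the comparison of cycle-gene cells, the covariation and the X-linked genes, were chosen after their values were seen. Alternatives covered all 135 cells, cells with at least 1000000 reads, cells without cycle genes, ratios of summed counts, a pseudocount of 0.1 CPM, factors by TMMwsp (edgeR 4.0.16) and by poscounts (DESeq2 1.42.0), thinning to 250000 reads, detection at 1 read and the longest transcript. The steps were tested on simulated counts. Versions were R 4.3.3, Python 3.11.15, scipy 1.17.1, numpy 2.4.6 and pandas 2.3.3.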

Additional observations from a re-analysis of the deposited data

How the results depend on the processing

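No paired analysis was possible because cells carry chip positions and not replicate numbers, and no replicate could be left out, since each age is 1 mouse. The median over members stayed below 0 under the settings tried with 2 exceptions: cells without a cycle gene gave 0.46 (58 higher, 21 lower, 18 past 2-fold higher), and the ratio of summed counts in those cells gave 0.069 (45 higher, 34 lower, 12 past 2-fold higher and 1 lower). The cause was not tested. Beside the 18 members past 2-fold higher, 7.75% of all genes with a count were past 2-fold higher in cells without a cycle gene. That share is not like for like, since members are expressed in more cells at the median than all genes with a count. For the other settings here the share of all genes past 2-fold is not given, so their counts have no background beside them. In cells without a cycle gene the complex medians were 0.56 (I), 0.47 (II), 0.55 (III), 0.46 (IV) and 0.11 (V), and the list medians −0.074 for biogenesis regulators, 0.34 for exchange and uncoupling, 0.22 for mitochondrial ribosomal proteins and 0.70 for proteasome subunits. All 135 cells gave 1 member past 2-fold higher and 2 lower, with 0.026 for complex I and 0.029 for complex II. Over all 135 cells many members lay on each side of 0. Their median there was below 0 but nearer to it than the −0.15 of the cells used first. Cells with at least 1000000 reads gave 4 higher, a pseudocount of 0.1 CPM gave 4 higher and 8 lower, and ratios of summed counts gave 4 higher and 1 lower, with −0.43 for assembly factors and 0.28 for electron carriers. Cells with 3500 to 4500 genes, a setting added after seeing the data, gave 5 higher and 9 lower, −0.31 for complex I, 0.063 for complex II, 0.094 for complex IV and 0.16 for exchange and uncoupling. For cells with against without a cycle gene, young HSCs gave 1.42 with a pseudocount of 0.1 CPM, 0.24 as ratios of summed counts and 0.76 within 3500 to 4500 genes, and old HSCs gave −0.65 within that range and 0.74 with at least 2 cycle genes. The 6 members past 2-fold named in the text kept their direction under all 9 settings tried for them, from −1.76 to −0.38 for *Atp5c1*, −2.00 to −0.83 for *Atp5o*, −1.78 to −0.19 for *Ndufa4*, −1.74 to −0.53 for *Atp5j2*, 0.33 to 1.26 for *Cox7a2l* and 1.34 to 2.87 for *Ndufv1*. With 1 mouse per age, depth is not the limit on statements about age: the spread between mice is unknown.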
